A study of Homo sapiens with 6 samples.

Results

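The 10 genes ATF4, ATF5, DDIT3, ASNS, CHAC1, TRIB3, PHGDH, PSAT1, SHMT2 and MTHFD2 belong to the ATF4 branch of the integrated stress response and to the serine and mitochondrial one-carbon pathway. They were taken by gene symbol from a table of 32679 genes, which held each of them once. Expression was measured by poly(A) RNA-seq in HEY cells, an established human ovarian cancer line, in FPKM, fragments scaled by transcript length and by the mapped fragments of the library. Cells with a hairpin against PQBP1 (shPQBP1, n = 3), treated with doxycycline at 1 microg/ml to induce the hairpin, were compared with cells with a control hairpin (shNC, n = 3), which the labels list as untreated. All 6 samples carry the label day 3, and the study describes its lines as lentiviral, stably integrated and selected with puromycin. Because the induced hairpin and the drug always occur in the same samples, an effect of PQBP1 loss cannot be told apart from one of doxycycline. The 3 samples of a group are described as biological replicates.

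ATF4 is a basic leucine zipper (bZIP) transcription factor that cells make when the translation factor eIF2 is phosphorylated upon amino acid shortage, endoplasmic reticulum stress or mitochondrial stress. This control acts mainly on translation of the ATF4 mRNA, so the mRNA level reports only part of it. ATF4 binds DNA with C/EBP-family partners and induces amino acid transporters, aminoacyl-tRNA synthetases, asparagine synthesis and the enzymes that make serine from a glycolytic intermediate and pass its carbon to folate in mitochondria.

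A composite C/EBP-ATF site marks many promoters that ATF4 binds, and its core letters TGATGNAA were searched on both strands of RefSeq promoters of 9 of the 10 genes. The promoter of SHMT2 was not analysed here. Each promoter ran from 250 bases before to 50 bases after an annotated start. The letters were found in 2 of the 9 genes, ASNS and CHAC1, against 4.46% of 27305 genes with a promoter. The cyclic AMP response element TGACGTCA, found in 2.25% of genes, was in none of the 9, nor was the endoplasmic reticulum stress element, CCAAT and CCACG with 9 bases between, found in 0.0916%. A match describes only these letters in this window, and none of the letters overlapped another motif. The windows around the matches are shown with the match in capitals, because these are the 2 genes of the 9 that hold the ATF4 letters near the start. The promoter of PSAT1, the gene of the 10 with the smallest p, is shown with capitals from the start site on, since it lacks them. The ASNS window lies at chr7:97872443-97872502 (hg38, minus strand), with its match beginning 68 bases before the start (position -68). That of CHAC1 lies at chr15:40953236-40953295 (plus strand), with the match on the opposite strand at position -209. The PSAT1 promoter lies at chr9:78296875-78297174 (plus strand) and holds none of the 3 motifs.
ASNS: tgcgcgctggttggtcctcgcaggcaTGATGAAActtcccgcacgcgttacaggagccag
CHAC1: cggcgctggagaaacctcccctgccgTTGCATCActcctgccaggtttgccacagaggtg
PSAT1: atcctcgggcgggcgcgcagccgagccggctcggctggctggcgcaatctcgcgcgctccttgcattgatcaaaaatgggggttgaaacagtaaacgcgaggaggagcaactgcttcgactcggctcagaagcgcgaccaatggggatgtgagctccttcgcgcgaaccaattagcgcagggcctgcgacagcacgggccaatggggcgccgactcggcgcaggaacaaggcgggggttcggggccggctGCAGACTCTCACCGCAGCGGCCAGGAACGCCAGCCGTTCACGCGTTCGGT

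The targeted gene PQBP1 was at 7.18, 6.67 and 6.93 FPKM in shNC cells and fell to 1.68, 1.72 and 1.44 FPKM in shPQBP1 cells (log2 fold change -2.04, standard error 0.10, limma adjusted p = 0.00154). FPKM summed to 294970 to 318484 in the shNC samples and to 278286 to 287423 in the shPQBP1 samples, of which the 10 most abundant genes took 25.5 to 26.7% and 22.4 to 23.8%. The total was highest in shNC sample 1, and this sample had the lowest correlations with the others (Pearson's r from 0.926 to 0.955 across genes). The depth of the libraries is unknown, since the values carry no counts. Among the epithelial markers, KRT7, KRT8 and KRT18 lay between 52.76 and 94.56 FPKM and KRT19 between 1.19 and 2.1, whereas EPCAM was at most 1.13, WT1 at most 0.71 and MUC16, the CA-125 antigen gene, at most 0.01. PAX8, a Muellerian lineage factor, was at 12.33 to 15.7 in shNC and 18.41 to 24.08 in shPQBP1 cells (log2 fold change 0.53, limma adjusted p = 0.102), and the groups of KRT19 (higher) and WT1 (lower) did not overlap either. The part of these markers in the results was not tested. Of the markers of other cell types, PTPRC was listed at 0 in every sample, VWF and DCN were at most 0.06, PECAM1 was at 0.23 to 0.25 in shNC and 0.02 to 0.06 in shPQBP1 cells, COL1A1 at 0.3 to 0.47 and 0.19 to 0.26, and CD68, a lysosomal protein gene, ranged from 9.12 to 21.16.

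None of the 10 genes passed an adjusted p under 0.05 between shPQBP1 and shNC cells (limma on log2(FPKM + 0.1), Benjamini-Hochberg over 11413 genes), where 2.91% of all genes tested passed. At an unadjusted p under 0.05 there were 2 of 10 against 23.6% of all genes, namely PSAT1 on the higher side, where all genes gave 11.9%, and ATF4 on the lower side, where they gave 11.7%. None changed more than 2-fold with an unadjusted limma p under 0.05, which 1.52% of the genes did. The study's methods give the same cutoffs for an edgeR comparison and do not say whether p was adjusted. The groups did not overlap in the same pair of genes, PSAT1 with all shPQBP1 samples above (17.3% of all genes) and ATF4 with all of them below (17.1%). All 10 genes had passed the filter of a mean FPKM of at least 1. Their median log2 fold change was -0.03, against 0.02 over all genes tested, with 4 values above 0 and 6 below.

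**Figure D1:**
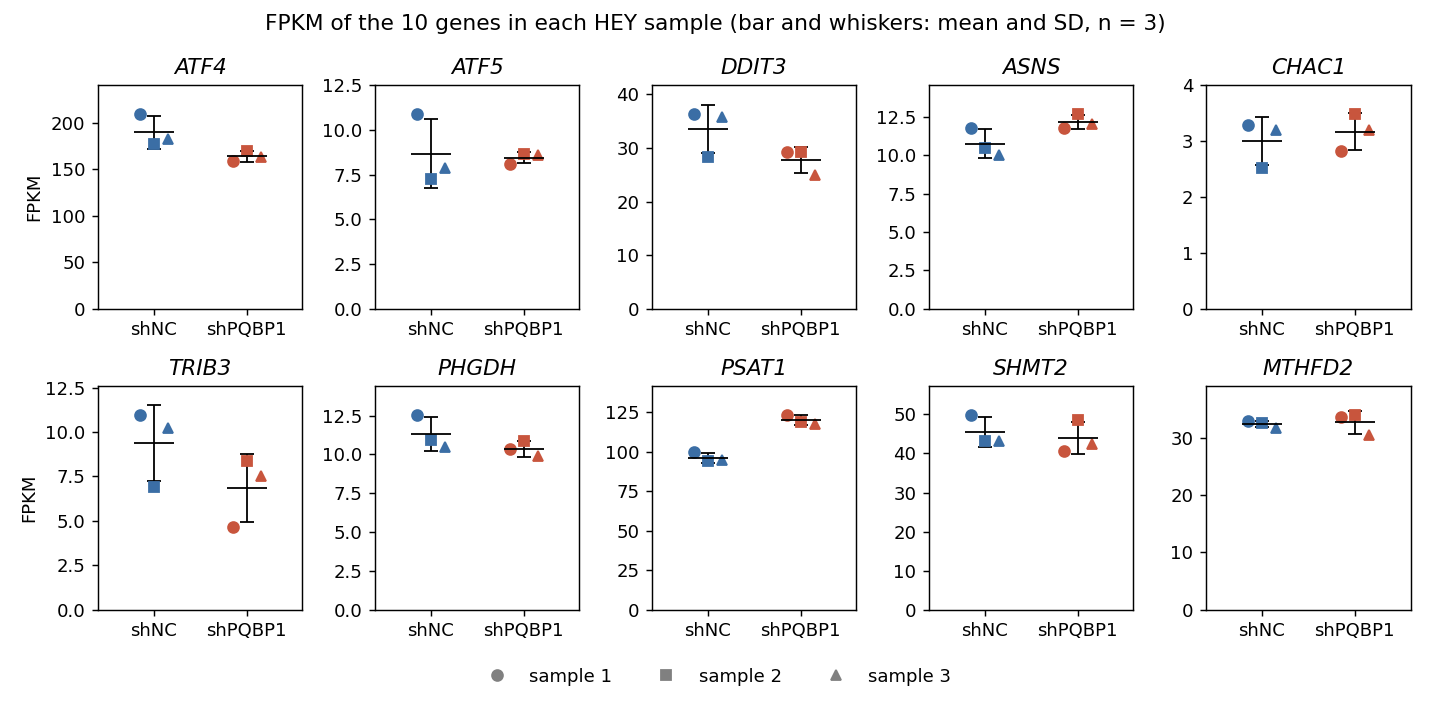
FPKM (vertical axes, from 0) of the 10 genes in the 3 shNC samples (blue) and the 3 shPQBP1 samples (red), with marker shapes for the sample number and a bar with whiskers for mean and SD. PSAT1 lies at 93.88 to 99.65 in shNC and at 117.56 to 123.43 in shPQBP1 samples, ATF4 at 176.6 to 209.02 and at 158.36 to 169.52, and the groups of the other genes overlap.

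Among the transcription factors, ATF4 (ENSG00000128272, chromosome 22 of hg38 from 39519695 to 39522683, plus strand) was the most abundant of the 10 genes. Its FPKM in shNC cells was 209.02, 176.6 and 182.47 (mean 189.4 ± 17.3, SD, n = 3). In shPQBP1 cells it was 158.36, 169.52 and 162.98 (mean 163.6 ± 5.61, SD, n = 3). The groups did not overlap, with shPQBP1 on the lower side, and shNC sample 1 stood above the other two. The log2 fold change was -0.21 with a 95% interval from -0.41 to -0.0064 (unadjusted p = 0.0449, adjusted p = 0.203, both from limma). An exact permutation test of the 6 samples gave p = 0.1, the smallest that 3 against 3 allow. Without shNC sample 1 the log2 fold change was -0.13 (limma adjusted p = 0.194). Of the processed ATF4 copies in the table, ATF4P3 ranged from 0.39 to 0.88 FPKM, and ATF4P1, ATF4P2 and ATF4P4 did not exceed 0.04, levels far under that of the gene.

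ATF5 (ENSG00000169136, chromosome 19 from 49928702 to 49933935, plus strand), a related bZIP factor that is also under translational control and is tied to the mitochondrial unfolded protein response, was listed at 10.87, 7.27 and 7.84 in the shNC samples and at 8.1, 8.63 and 8.58 in the shPQBP1 samples. The 3 shPQBP1 samples lay within the shNC range, between samples 3 and 1. Its log2 fold change was -0.02 (95% interval -0.40 to 0.37, limma adjusted p = 0.957), and it turned to 0.16 without shNC sample 1. The span of ATF5 overlaps NUP62 and IL4I1 on the other strand, and whether reads were counted by strand is not given in the sources used here.

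DDIT3 (CHOP, ENSG00000175197, chromosome 12 from 57516588 to 57521737, minus strand), a C/EBP-family factor induced by ATF4 and linked to cell death under prolonged stress, had 36.31, 28.32 and 35.82 FPKM in the shNC samples. In the shPQBP1 samples it had 29.27, 29.18 and 24.94. Samples 1 and 3 of shNC were the highest, and shNC sample 2 fell among the shPQBP1 samples. This gave a log2 fold change of -0.26 (95% interval -0.57 to 0.04, limma adjusted p = 0.26). DDIT3 overlaps the span of MARS1, a methionyl-tRNA synthetase gene on the other strand with 18.59 to 22.48 FPKM, and reads in shared bases cannot be assigned without strand.

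Among the stress targets, ASNS (asparagine synthetase, ENSG00000070669, chromosome 7 from 97851677 to 97872542, minus strand), with the match shown above, was at 11.79, 10.46 and 9.99 FPKM in the shNC samples and at 11.77, 12.67 and 12.02 in the shPQBP1 samples. The groups overlapped at a single point, where shNC sample 1 lay just above shPQBP1 sample 1. The log2 fold change was 0.18 (95% interval -0.04 to 0.40, limma adjusted p = 0.278). Without shNC sample 1 the groups no longer overlapped and it was 0.25 (limma adjusted p = 0.105).

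CHAC1 (ENSG00000128965, chromosome 15 from 40952962 to 40956512, plus strand), an enzyme that breaks down glutathione and the other gene with a TGATGNAA match, was the least abundant member. Its FPKM was 3.28, 2.51 and 3.2 in the shNC samples and 2.82, 3.48 and 3.19 in the shPQBP1 samples. The groups were interleaved, with a log2 fold change of 0.08 (95% interval -0.26 to 0.42, limma adjusted p = 0.742).

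TRIB3 (ENSG00000101255, chromosome 20 from 362835 to 397559, plus strand), a pseudokinase induced by ATF4 and DDIT3 that restrains both the stress response and AKT signaling, was the most variable of the 10 genes. It had 10.97, 6.93 and 10.25 FPKM in the shNC samples and 4.66, 8.35 and 7.52 in the shPQBP1 samples, with coefficients of variation of 23.0% and 28.3%. The lowest value, in shPQBP1 sample 1, and the highest, in shNC sample 1, set most of the distance between the means. Its log2 fold change of -0.46 was the largest in size of the 10 but had a 95% interval from -1.12 to 0.19 (limma adjusted p = 0.328), and it was -0.21 without shPQBP1 sample 1.

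In serine synthesis, PHGDH catalyzes the first step, PSAT1 the transamination and PSPH the last step. PHGDH (ENSG00000092621, chromosome 1 from 119648411 to 119744218, plus strand) had 12.55, 10.95 and 10.48 FPKM in the shNC samples and 10.32, 10.88 and 9.87 in the shPQBP1 samples. shNC sample 1 was the highest of the 6, and the others spanned little more than 1 FPKM. This gave a log2 fold change of -0.12 (95% interval -0.36 to 0.11, limma adjusted p = 0.441), which was -0.049 without that sample.

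PSAT1 (ENSG00000135069, chromosome 9 from 78297125 to 78330093, plus strand), with the second highest level of the 10, had 99.65, 93.88 and 94.72 FPKM in the shNC samples. In the shPQBP1 samples it had 123.43, 118.74 and 117.56, so the means were 96.1 ± 3.12 for shNC and 119.9 ± 3.11 for shPQBP1 (SD, n = 3 each). All shPQBP1 samples were above all shNC samples, and the gap between the groups was wider than the range within either. The log2 fold change was 0.32, a fold of 1.25 (standard error 0.06, 95% interval 0.17 to 0.47, unadjusted p = 0.0018 from limma). The adjusted p of 0.0537 (limma) missed the threshold narrowly and moved across it with the setting, to 0.0328 without shNC sample 1 and to 0.201 without shPQBP1 sample 1. An exact permutation test gave p = 0.1, the smallest possible. PSPH, the enzyme of the last step, had 7.01, 6.2 and 6.62 FPKM in the shNC samples and 6.54, 9.01 and 7.77 in the shPQBP1 samples, with overlapping groups (log2 fold change 0.22, limma adjusted p = 0.339). PSPH was at 0.11 without shPQBP1 sample 2 and at 0.34 without shPQBP1 sample 1. In a ratio added after the values were seen, the level of PSAT1 was 8.52 ± 0.551 times that of PHGDH in the shNC samples and 11.6 ± 0.591 times in the shPQBP1 samples (SD, n = 3 each, FPKM per length). This ratio did not overlap between the groups, from 7.94 to 9.04 and from 10.9 to 12.0, but the genes differ in GC content (42.5% for PSAT1 and 58.1% for PHGDH). With a trend on GC and length taken out, their log2 fold changes moved towards each other, from 0.32 to 0.25 for PSAT1 and from -0.12 to 0.06 for PHGDH. The ratio of PSAT1 to PSPH overlapped between the groups, at 14.6 ± 0.51 in shNC and 15.7 ± 2.89 in shPQBP1 samples (SD, n = 3 each). Of the processed copies of PSAT1, PSAT1P3 reached 0.16 FPKM and PSAT1P1 and PSAT1P4 were listed at 0. How reads that match both gene and copy were assigned was not tested.

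SHMT2 and MTHFD2 are mitochondrial enzymes that take the one-carbon unit from serine and oxidize it on folate, and SHMT1 and MTHFD1 are their cytosolic counterparts. SHMT2 (ENSG00000182199, chromosome 12 from 57229573 to 57234935, plus strand) had 49.91, 43.26 and 43.12 FPKM in the shNC samples and 40.68, 48.52 and 42.41 in the shPQBP1 samples. A single sample of each group was high, sample 1 of shNC and sample 2 of shPQBP1, and the log2 fold change was -0.05 (95% interval -0.30 to 0.20, limma adjusted p = 0.772). MTHFD2 (ENSG00000065911, chromosome 2 from 74186172 to 74217565, plus strand) had 32.89, 32.58 and 31.8 FPKM in the shNC samples and 33.7, 34.03 and 30.46 in the shPQBP1 samples. Its shNC samples were the closest together of any of the 10 genes, with a coefficient of variation of 1.73%, and its log2 fold change was 0.01 with a 95% interval from -0.17 to 0.19 (limma adjusted p = 0.931). SHMT2 was 14.1 ± 1.06 times as high as SHMT1 in the shNC samples and 14.6 ± 0.837 times in the shPQBP1 samples. MTHFD2 was 2.2 ± 0.113 times as high as MTHFD1 in shNC and 2.08 ± 0.193 times in shPQBP1 samples (SD, n = 3 each). Both ratios overlapped between the groups. The processed copies MTHFD2P1, MTHFD2P6 and MTHFD2P7 were at most 0.33 FPKM, and ASNSP3, the copy of ASNS, at most 0.08.

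By mean FPKM over the 6 samples, which is per length and so allows genes to be set side by side, the order was ATF4 (176.5), PSAT1 (108.0), SHMT2 (44.6), MTHFD2 (32.6), DDIT3 (30.6), ASNS (11.4), PHGDH (10.8), ATF5 (8.55), TRIB3 (8.11) and CHAC1 (3.08). Of the neighbors in this order, MTHFD2 and DDIT3, ASNS and PHGDH, and ATF5 and TRIB3 were not separated, the first of each pair being higher in 4, 3 and 4 of the 6 samples. In every other neighboring pair the first gene was higher in all 6 samples, though the ranges of PHGDH and ATF5 over samples overlapped. ATF4 was higher than 98.5% of the genes tested and CHAC1 than 31.4%.

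The samples of a group differed from each other in a shared way. All 10 genes were highest among the shNC samples in sample 1, where 44.5% of all genes tested were. On the log2 scale, shNC sample 1 exceeded the mean of the other shNC samples by a median of 0.21 over the 10 genes, from 0.03 for MTHFD2 to 0.52 for ATF5, against 0.03 over all genes. Among the shPQBP1 samples, sample 2 was the highest in 8 of the 10 genes, against 35.6% of all genes, the exceptions being DDIT3 and PSAT1.

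**Figure D2:**
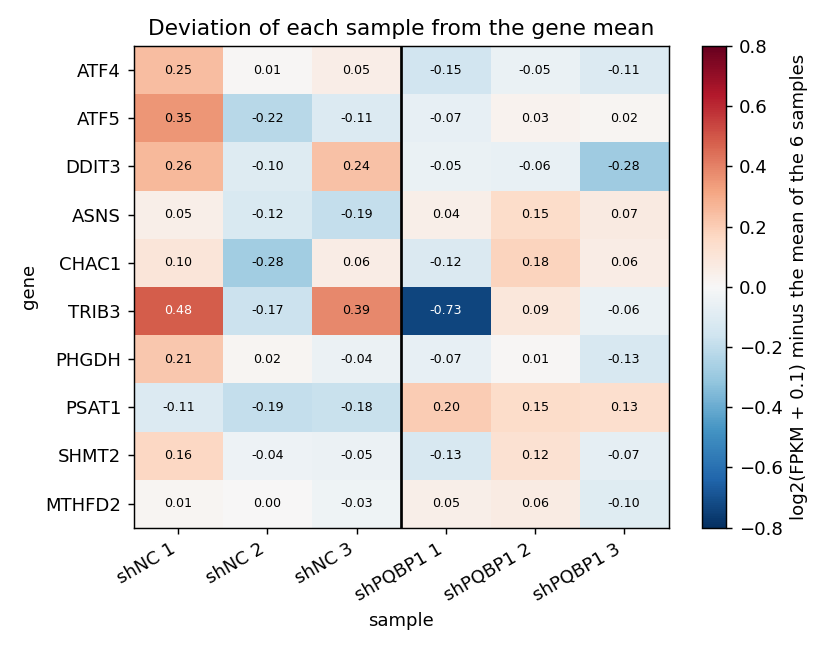
Deviation of each sample (columns) from the mean of the 6 samples on the log2(FPKM + 0.1) scale, for each gene (rows), with red above and blue below the mean. shNC sample 1 is at or above every other shNC sample in all 10 rows, up to 0.48 for TRIB3, and PSAT1 is the row with negative values in all shNC and positive values in all shPQBP1 samples.

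The GC content of the transcripts moved with the differences. Over the 11385 tested genes with a GENCODE transcript, genes richer in GC had lower log2 fold changes (rho = -0.459 by Spearman, given as a description over genes of the same libraries). Its median was 0.19 for genes under 45% GC, -0.03 from 45 to 55% and -0.14 from 55% on. The 3 genes of the 10 under 45% GC, ASNS (42.7%), PSAT1 (42.5%) and MTHFD2 (41.0%), all had a log2 fold change above 0, and 4 of the 5 from 55% on (ATF5, TRIB3, PHGDH and SHMT2, not CHAC1) had one below 0. With a smooth trend on transcript GC and length taken out of each sample, 6 of the 10 genes were above 0 and 4 below. PSAT1 then had a log2 fold change of 0.25 (95% interval 0.09 to 0.41, limma adjusted p = 0.0682) and ATF4 of -0.10 (limma adjusted p = 0.157). TRIB3 was then at -0.25, DDIT3 at -0.20 and ASNS at 0.12. CHAC1 moved from 0.08 to 0.29 (95% interval 0.02 to 0.56, limma adjusted p = 0.16). ATF5, PHGDH and SHMT2 turned from below to above 0 and MTHFD2 from above to below, all with intervals that included 0. After this step 4 of the 10 genes, and no longer all of them, were highest in sample 1 of the shNC group. The share of all genes highest there after this step was not computed. The median difference of shNC sample 1 from the mean of the other shNC samples was then 0.01, against -0.05 over all genes.

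**Figure D3:**
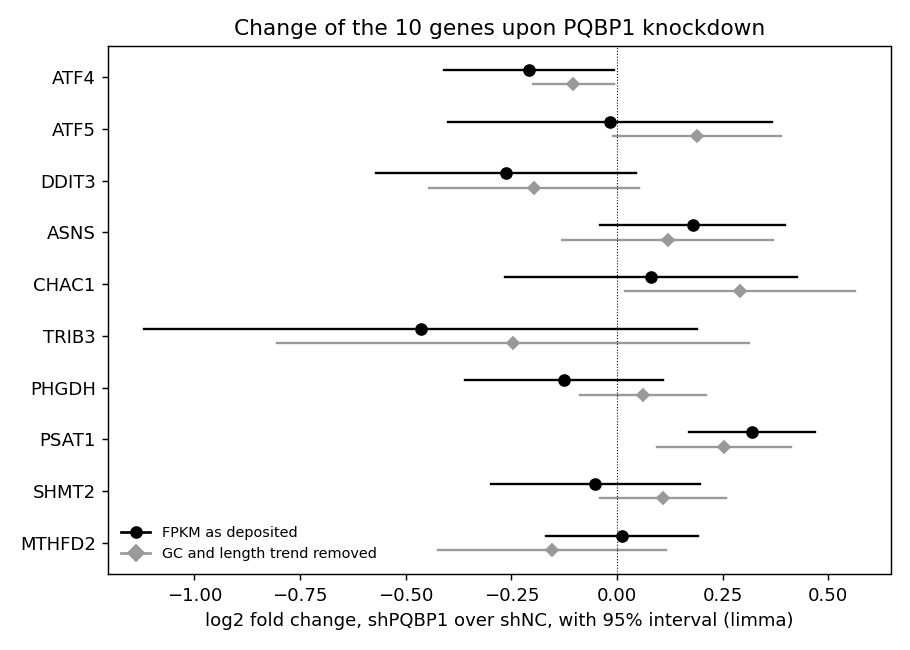
Log2 fold change of the 10 genes, shPQBP1 over shNC, with 95% intervals from limma, for the deposited FPKM (black) and after a smooth trend on transcript GC and length was taken out (gray). The interval of PSAT1 is above 0 and that of ATF4 below 0 in both, and that of CHAC1 is above 0 after the correction.

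The other genes of the stress response and of serine and folate metabolism were counted in 9 lists with 86 genes, 76 of which were tested. At an adjusted p under 0.05 (limma), 1 of the 76 was lower and none higher, against 2.91% of all genes. At an unadjusted p under 0.05, 8 of the 76 were higher and 9 lower, close to the shares of 11.9% and 11.7% over all genes. Groups did not overlap in 13 of the 76 on the higher and 16 on the lower side, against 17.3% and 17.1% of all genes. The median log2 fold change of the 76 was 0.02, the same as over all genes.

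The gene that passed was ATF3 (ENSG00000162772), a stress-induced bZIP repressor that ATF4 activates. It fell from 5.79, 5.67 and 6.06 FPKM in the shNC samples to 4.38, 3.86 and 3.82 in the shPQBP1 samples, so that all shPQBP1 samples were lower. The log2 fold change was -0.53 (standard error 0.09, limma adjusted p = 0.0384). This call was lost when any 1 sample was left out, with adjusted p between 0.0505 and 0.167 (limma), and also with the GC and length trend taken out (adjusted p = 0.06, log2 fold change -0.45) and with no filter on low values (0.0784). The log2 fold change stayed between -0.59 and -0.50 over the samples left out. The other 5 tested bZIP partners and relatives did not pass, and the largest log2 fold changes among them were those of the pseudokinase TRIB2 (0.27, or 0.18 without shPQBP1 sample 2) and the AP-1 repressor JDP2 (0.19, or 0.30 without shNC sample 1 and 0.12 without shNC sample 2).

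Among the 10 genes that control eIF2 phosphorylation, none passed in either direction, with 1 of the 10 higher and 3 lower before adjustment, where all genes gave 11.9% and 11.7%. Without overlap there were 1 higher and 4 lower, against 17.3% and 17.1% of all genes. The phosphatase subunit PPP1R15A (GADD34), itself a target of ATF4, had 162.48, 134.4 and 152.76 FPKM in the shNC samples and 122.15, 128.84 and 115.89 in the shPQBP1 samples, without overlap (log2 fold change -0.29, limma adjusted p = 0.137), and its log2 fold change was -0.093 after the GC and length correction. DELE1, which relays mitochondrial stress to the kinase EIF2AK1, had a log2 fold change of -0.30 (limma adjusted p = 0.168). Of the 10 tested stress targets of ATF4, none passed, with 2 higher and none lower before adjustment (11.9% and 11.7% of all genes). GDF15, a secreted stress cytokine, had 3.97, 3.16 and 3.63 FPKM in the shNC samples and 4.47, 5.15 and 4.49 in the shPQBP1 samples (log2 fold change 0.38, limma adjusted p = 0.132), and the tRNA exporter XPOT had a log2 fold change of 0.33 (limma adjusted p = 0.177). That of XPOT was 0.13 after the GC and length correction and 0.20 without shNC sample 1. GDF15 had a log2 fold change of 0.60 and an adjusted p of 0.0124 (limma) with the GC and length trend removed.

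The 9 tested amino acid transporters had a median log2 fold change of -0.19, and none passed. Before adjustment 1 was higher and 3 lower (11.9% and 11.7% of all genes), the lower ones being SLC7A1 (-0.26), SLC3A2 (-0.23) and SLC43A1 (-0.43), named after their values were seen. Without overlap, 2 of the transporters were higher and 4 lower, against 17.3% and 17.1% of all genes. SLC7A11, the cystine/glutamate antiporter, had 2.69, 5.73 and 5.69 FPKM in the shNC samples and 8.94, 7.19 and 8.13 in the shPQBP1 samples, with shNC sample 1 far below the rest (log2 fold change 0.84, limma adjusted p = 0.167). Without that sample SLC7A11 was at 0.49 (limma adjusted p = 0.0771), and after the GC and length correction also at 0.49, with an adjusted p of 0.0484 (limma). SLC38A2, a neutral amino acid carrier, showed the same low shNC sample 1, at 30.78 against 48.17 to 62.72 in the others (log2 fold change 0.47, limma adjusted p = 0.23), and was at 0.23 without it and at 0.20 after the GC and length correction. The 12 aminoacyl-tRNA synthetase genes had a median of 0.13, none passed (3 higher before adjustment, against 11.9% of all genes, and 6 higher and 2 lower without overlap, against 17.3% and 17.1%), and the largest values were those of EPRS (0.48) and NARS (0.31), both likewise lowest in shNC sample 1 and at 0.25 and 0.17 without it. These 4 transcripts were low in the shNC sample in which the 10 genes were high. Their GC content was 35.4% (SLC7A11), 37.4% (SLC38A2), 42.3% (EPRS) and 41.7% (NARS), under 45% as for 3 of the 10 genes. Of the 12 synthetase genes, 7 were lowest of the shNC samples in sample 1 and 5 highest. Of all 76 tested list genes 29 were lowest and 44 (57.9%) highest there, against 44.5% of all genes on the higher side. The share of all genes lowest there was not computed. None of the 4 enzymes of proline, alanine and phosphoenolpyruvate synthesis passed, with log2 fold changes of 0.21 for PYCR1 and -0.21 for GPT2. PYCR1 was at 0.44 after the GC and length correction, at 0.37 without shPQBP1 sample 1 and at 0.11 without shPQBP1 sample 3, and GPT2 turned to 0.084 without shPQBP1 sample 1.

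Of the other serine and glycine genes, 7 were tested and none passed (1 lower before adjustment, SFXN1, against 11.7% of all genes). SFXN1, which carries serine into mitochondria, came nearest, at 8.92, 8.27 and 8.97 FPKM in the shNC samples and 6.11, 6.5 and 6.86 in the shPQBP1 samples, without overlap (log2 fold change -0.42, limma adjusted p = 0.0565). With the GC and length trend removed its adjusted p was 0.0276 (limma). SHMT1 had a log2 fold change of -0.10, which was -0.046 without shNC sample 1, -0.18 without shNC sample 2 and -0.0092 after the GC and length correction. GCSH, a glycine cleavage subunit, had one of 0.29, which shPQBP1 sample 2 set, since GCSH was at 0.066 without it. None of the 13 tested folate genes passed, with log2 fold changes of 0.37 for the methionine synthase gene MTR (limma adjusted p = 0.457) and 0.09 for MTHFD1. That of MTHFD1 was 0.15 without shNC sample 1 and 0.054 without shNC sample 3. MTR rested on single samples, being at 0.14 when shPQBP1 sample 2 was left out and at 0.64 when shNC sample 3 was. In glutathione turnover, GCLM, the modifier subunit of the rate-limiting enzyme of glutathione synthesis, had 4.58, 5.47 and 5.99 FPKM in the shNC samples and 8.29, 7.55 and 8.03 in the shPQBP1 samples (log2 fold change 0.57, limma adjusted p = 0.0597). GCLM was at 0.31 after the GC and length correction (limma adjusted p = 0.0987) and at 0.47 without shNC sample 1 (limma adjusted p = 0.0485). GGCT had a log2 fold change of 0.19 (0.099 without shPQBP1 sample 3, 0.12 without shNC sample 1 and 0.30 without shPQBP1 sample 2), and none of the 5 tested genes passed (1 higher before adjustment, GCLM, against 11.9% of all genes).

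**Figure D4:**
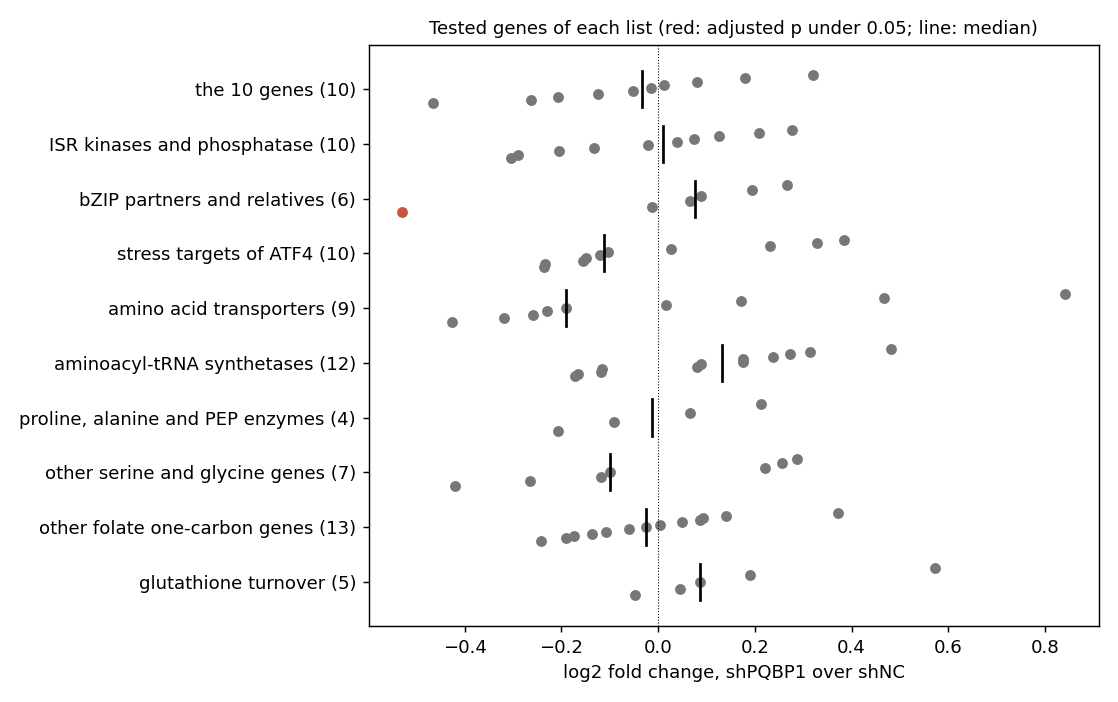
Log2 fold change, shPQBP1 over shNC, of each tested gene (points) in the 10 genes and in the 9 lists, with the number tested in parentheses and a line at the median. ATF3, at -0.53, is the point in red with an adjusted p under 0.05, and the list medians lie between -0.19 and 0.13.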

How the data were processed

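Poly(A) libraries were sequenced in pairs on an Illumina HiSeq instrument. By the submitters' processing notes and the study's methods, the authors used HISAT2 2.2.0 (hg38), SAMtools 1.9 and StringTie 1.3.0 for mapping and transcript assembly, and edgeR for their own comparison. The annotation release and strand setting are not given in the sources used here. Expression is the FPKM that the authors deposited per gene and sample, to 2 decimals, with replicates kept apart. The authors' own fold changes, p-values and q-values were not used. A search for steps of whole reads in low values of 4109 to 4489 single-transcript genes per sample found none (strength 0.174 to 0.198 on a scale from 0 to 1), so depth is unknown, no counting interval can be given, and the spread between samples stands for all error.

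FPKM was not scaled further. The 11413 of 32679 genes whose mean FPKM reached 1 were compared on log2(FPKM + 0.1), which understates changes of low genes, with limma (version 3.58.1, R version 4.3.3), two-sided, with eBayes and its mean-variance trend, and Benjamini-Hochberg adjustment over all of them. Single genes were also given a two-sided exact permutation test (scipy version 1.17.1). Alternatives were median-of-ratios and quantile scaling, other filters and pseudocounts, no trend, the replicate number as a block, removal of the trend on GC content and length (natural splines, 5 degrees of freedom, GENCODE release 44 canonical transcripts) and each sample left out. The fit was tested on simulated data. Promoters came from RefSeq (GRCh38.p14), by symbol. The 10 genes and the lists were chosen with earlier results of these data known. Named are PQBP1, the 10 genes, their copies, SHMT1, MTHFD1 and PSPH, and from each list the genes that passed without overlap or, under 2 of them, the 2 largest changes. An item under this rule is not reported here. Markers and overlapping genes are given as context, and others are noted where named.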

Additional observations from a re-analysis of the deposited data

How the results depend on the processing

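Under the 16 alternatives, each computed where the gene stayed in the table tested, ATF4, DDIT3 and TRIB3 stayed below 0 and ASNS and PSAT1 above 0. The count of the 10 genes at an adjusted p under 0.05 (limma) was 1, PSAT1, with a filter at a mean FPKM of 10 (adjusted p = 0.0442), with quantile normalization (0.032) and without shNC sample 1 (0.0328), and 0 to 1 over the samples left out. At an unadjusted p under 0.05 (limma) the count was 2 as reported, against 23.6% of all genes. It was 3 with the GC correction. It was 1 with no filter on low values, without the mean-variance trend, with the replicate block and with the GC correction plus block. With a sample left out it was 1 to 4 (3 without shNC sample 1, 4 without shNC sample 2, 1 otherwise). The share of all genes was not computed under these alternatives, so their counts cannot be set against it. Groups did not overlap in 4 of the 10 after the GC correction (ATF4, ATF5, PSAT1 and SHMT2), where 35.9% of all genes did not, and in 3 to 4 with a sample left out, where 40.6% to 47.5% did not.

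The following log2 fold changes turned their sign. With the GC correction, alone or with the block, ATF5 was at 0.19, PHGDH at 0.062, SHMT2 at 0.11 and MTHFD2 at -0.15. With a sample left out, ATF5 lay between -0.13 and 0.16 (above 0 without shNC sample 1 or shPQBP1 sample 1), SHMT2 between -0.13 and 0.018 (above 0 without the same samples), CHAC1 between -0.038 and 0.16 (below 0 without shNC sample 2), MTHFD2 between -0.017 and 0.063 (below 0 without shNC sample 3, shPQBP1 sample 1 or shPQBP1 sample 2) and GPT2 between -0.41 and 0.084 (above 0 without shPQBP1 sample 1). The cause was not tested.

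Over all genes, 332 passed an adjusted p under 0.05, against 938 with the GC correction, 21 with it and the block, 211 at a mean FPKM of 10 or more, 190 with no filter, 0 with the block, and 30 (without shPQBP1 sample 3) to 464 (without shNC sample 1) with a sample left out. In the 9 lists 1 gene passed, ATF3, against 7 others with the GC correction, where ATF3 did not pass (adjusted p = 0.06), 2 with quantile normalization, 0 at a mean FPKM of 10 or more, with no filter, with the block or with the GC correction plus block, and 0 to 2 (without shNC sample 1) with a sample left out. Deviations of same-numbered samples from their group means correlated at -0.186, -0.138 and -0.011, and those of differently numbered samples at -0.143 to 0.225. These values show no pairing by replicate number, and a shared preparation of samples was not tested. With the block PQBP1 stayed at -2.04 (adjusted p = 0.0686 from limma), and at -1.86 with the GC correction and block (0.0543). Depth limits are unknown.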

Other observations

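Of the 86 genes in the lists, 10 were below the filter, and some of these are given here as values with no test, chosen after they were seen. NUPR1, a stress-induced chromatin protein gene of the ATF4 program, had 0.66, 0.46 and 0.57 FPKM in the shNC samples and 0.94, 0.8 and 0.75 in the shPQBP1 samples. ALDH1L2, a mitochondrial folate enzyme, had 0.51, 0.65 and 0.78 in the shNC samples and 1.49, 1.56 and 0.61 in the shPQBP1 samples, so that shPQBP1 sample 3 stayed in the shNC range. The glycine decarboxylase GLDC had 0.51, 0.47 and 0.35 against 0.27, 0.31 and 0.27 FPKM. The groups of NUPR1 and GLDC did not overlap, NUPR1 being higher and GLDC lower in shPQBP1 samples, where 17.3% and 17.1% of the tested genes had groups apart in these directions.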
